A study of Mus musculus with 5 samples.

Results

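The acute phase response genes examined here are Saa1, Saa2, Saa3, Saa4, Orm1, Orm2, Hp, Lcn2, Socs3 and Bcl3, 10 genes of the 33589 rows in a table of liver gene expression. They were picked by symbol, and the list was chosen by a reading of the knockout and control values of this same table. The differences between the groups are therefore given for these genes as a description, with no test. Livers labelled Lyve1-Cre;Hegfl/fl (3 libraries, called knockout) were set against livers labelled Hegfl/fl (2 libraries, called control). All were from male mice of 6 weeks that then ate a high-fat diet for 4 weeks. The floxed Heg1 alleles and the diet are common to every mouse, and the labels name Lyve1-Cre in the knockout livers only. The title of the study speaks of hepatocytes, but the labels of the samples give liver. Lyve1 is a gene of lymphatic and liver sinusoidal endothelial cells, so the recombinase it drives is directed at a minority of the cells in a liver, while most of the genes described below are made by hepatocytes.

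The acute phase response is the rapid change in what the liver secretes during infection, injury or inflammation. Interleukin 6 acts through the shared receptor chain gp130 and the kinase JAK1 to activate the transcription factor STAT3, and interleukin 1 and tumour necrosis factor act through NF-kB. C/EBP factors join them at many of the promoters. Serum amyloids A, orosomucoids, haptoglobin and lipocalin 2 are among the products, SOCS3 shuts the interleukin 6 signal off, and BCL3 is a nuclear member of the IkB family that works with NF-kB.

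Levels are in FPKM, a fragment rate that corrects for transcript length and library size, so that different genes can be set side by side. FPKM summed to between 797692 and 820498 per library. Heg1, the targeted gene (chromosome 16, 33684370 to 33771576, mm10), had 0.45, 0.43 and 0.50 FPKM in the knockout livers, against 0.48 and 0.35 FPKM in the control livers. A whole-gene value in whole liver at this level does not check the labels. Knockout 1 stood apart in erythrocyte transcripts, where the 7 markers listed summed to 1329, 244 and 141 FPKM in the knockout livers and to 136 and 146 FPKM in the control livers. In bulk liver, fewer cells of a type and less RNA per cell cannot be told apart. The labels do not say that each library is a separate animal, so every SD measures the spread between these libraries.

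The 10 genes did not behave as a single block. Saa1, Saa2, Saa3, Orm2 and Lcn2 differed several-fold between livers of the same genotype, with control 2 and knockout 2 highest for each of them. Socs3 and Bcl3 were higher in each knockout liver than in either control liver. Hp was lower in each knockout liver than in either control liver, and the groups overlapped for Saa4 and Orm1, whose highest and lowest livers differed 1.55-fold and 1.42-fold (the median over all genes was 1.38-fold). All 10 genes passed the filter of a mean of at least 1 FPKM, and the lowest value of any of them in any library was 2.16 FPKM.

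**Figure D1:**
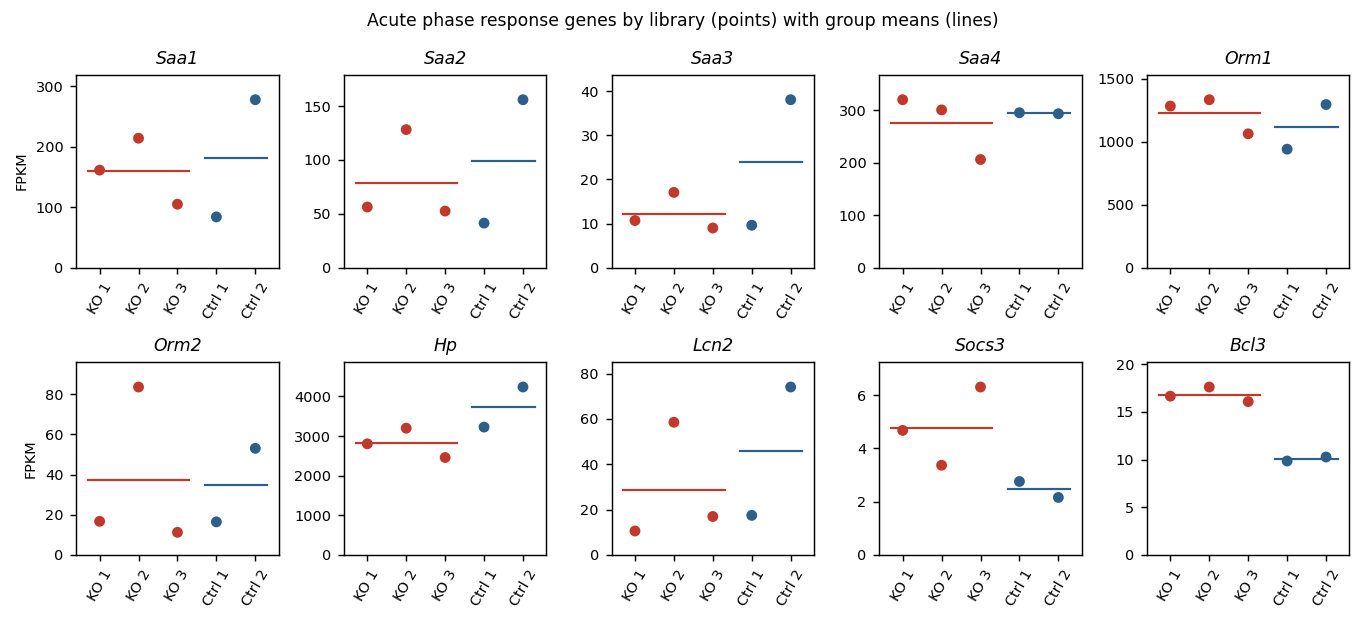
FPKM (y axis, linear from 0) of each of the 10 genes in the 3 knockout livers (KO, red points) and the 2 control livers (Ctrl, blue points), with the group mean as a line. Bcl3 stands between 16.1 and 17.6 FPKM in the knockout livers and at 9.85 and 10.3 FPKM in the control livers, whereas Lcn2 is high in KO 2 and Ctrl 2 and low in the other livers.

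The serum amyloid A genes lie together on chromosome 7 within 42.3 kb (46711998 to 46754313, mm10), in the order Saa3, Saa4, Saa1, Saa2. Saa1 and Saa2 encode the acute phase apolipoproteins that the liver loads onto high-density lipoprotein. Saa1 (46740497 to 46742980, minus strand) had 161, 214 and 105 FPKM in the knockout livers and 83.9 and 278 FPKM in the control livers. The control pair enclosed all 3 knockout values. Group means were 160.1 ± 54.6 FPKM in knockout livers (SD, n = 3) and 181 ± 137 FPKM in control livers (SD, n = 2). The difference on the log2(FPKM + 1) scale, knockout minus control, was 0.0075 with a limma standard error of 0.51. That value depended on which control was kept, being -0.85 without control 1 and 0.87 without control 2.

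Saa2 (46751790 to 46754313, plus strand) followed the same order of libraries as Saa1 at a lower level. Saa2 had 56.3, 128 and 52.5 FPKM in the knockout livers and 41.3 and 156 FPKM in the control livers. Its log2 difference of -0.15 (SE 0.61) was small beside the gap of 1.89 between the control livers, and it was -1.10 without control 1 and 0.79 without control 2. The ratio of Saa1 to Saa2 was 2.87, 1.67 and 1.999 in the knockout livers and 2.03 and 1.78 in the control livers. It was lowest in knockout 2 and control 2, the libraries where the summed level of the pair was highest.

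Saa3 (46711998 to 46715700, minus strand) is the serum amyloid made mainly outside hepatocytes in the mouse, in macrophages and fat among other places. It had 10.7, 17.05 and 8.98 FPKM in the knockout livers and 9.61 and 38.1 FPKM in the control livers. Control 2 was far above the other livers, with knockout 2 next. The log2 difference was -0.67 (SE 0.54), but 0.27 without control 2 and -1.61 without control 1.

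Saa4 (46727998 to 46732603, minus strand) is the constitutive member of the family, which responds little to inflammation. Its level was 320, 301 and 206 FPKM in the knockout livers and 296 and 294 FPKM in the control livers. Knockout 3 was the low liver, and the controls were nearly equal. Knockout minus control was -0.12 (SE 0.19) on the log2 scale, -0.24 without knockout 1 and 0.076 without knockout 3. In the library with the least Saa1, control 1, Saa4 stood at 3.53 times Saa1, and in the library with the most, control 2, the ratio was 1.06.

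The makeup of the serum amyloid transcripts therefore differed between livers. Saa1 to Saa4 summed to 549, 660 and 373 FPKM in the knockout livers and to 431 and 765 FPKM in the control livers. Saa4 made up 58.4%, 45.6% and 55.4% of that sum in the knockout livers, against 68.7% and 38.4% in the control livers. The knockout shares lay between those of the 2 controls.

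The orosomucoids, or alpha-1-acid glycoproteins, are plasma lipocalins that bind drugs and lipids. Their genes lie within 21.3 kb on chromosome 4 (63344560 to 63365878, mm10). Orm1 (63344560 to 63348163, plus strand) was the second most abundant of the 10 genes. It had 1283, 1334 and 1063 FPKM in the knockout livers and 941 and 1296 FPKM in the control livers, and the groups overlapped. Knockout minus control was 0.14 (SE 0.17) on the log2 scale, -0.086 without control 1 and 0.38 without control 2.

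Orm2 (63362449 to 63365878, plus strand) had the widest range of the 10 genes. It had 16.7, 83.5 and 11.2 FPKM in the knockout livers and 16.4 and 53.0 FPKM in the control livers. The highest and the lowest liver were both knockouts and differed 7.43-fold. The log2 difference between the groups was -0.22 with a standard error of 0.86, and it was -1.04 without control 1 and 0.60 without control 2. Leaving out a knockout gave 0.067 without knockout 1, -1.06 without knockout 2 and 0.33 without knockout 3. Orm2 made up 1.28%, 5.86% and 1.04% of the summed Orm1, Orm2 and Orm3 level in the knockout livers and 1.71% and 3.91% in the control livers. Knockout 2 and control 2 thus had the largest Orm2 share as well as the highest Orm2 level. Orm3, which is not among the 10 genes, had 2.79, 8.09 and 3.14 FPKM in the knockout livers and 2.63 and 6.63 FPKM in the control livers.

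**Figure D2:**
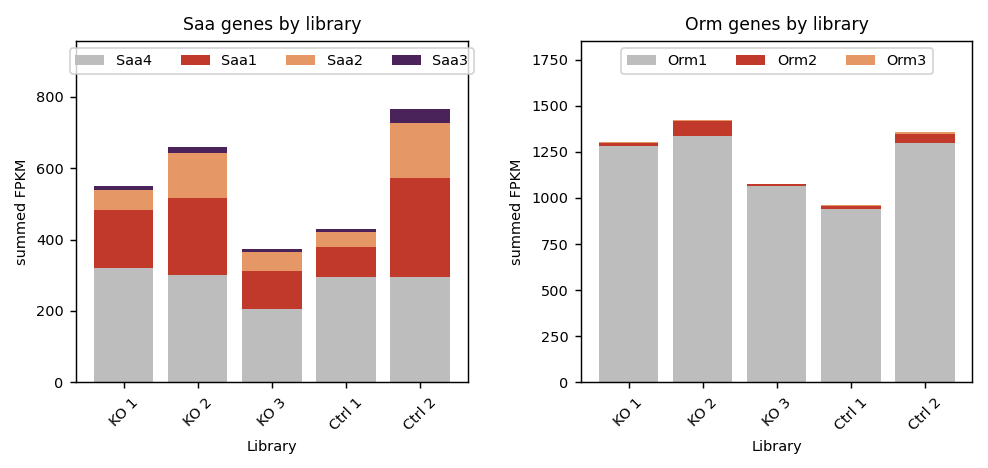
Summed FPKM (y axis, linear from 0) of Saa1 to Saa4 (left) and of Orm1 to Orm3 (right) in the 3 knockout livers (KO) and 2 control livers (Ctrl), stacked by gene. The Saa4 part varies less than the Saa1 and Saa2 parts, and Orm1 makes up between 93.6% and 98.7% of its family in every library.

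Member values within each family carry a limit from sequence likeness. GENCODE transcripts of Saa1 and Saa2 were identical at 572 of 609 aligned positions (93.9%), with a longest identical run of 99 bases. Those of Orm1 and Orm2 were identical at 705 of 775 positions (91.0%), with a longest run of 141 bases. Reads from such stretches cannot be assigned to either gene by sequence, so the split of Saa1 from Saa2 and of Orm1 from Orm2 is uncertain, in particular for Orm2 beside the far more abundant Orm1. Saa1 and Saa3 transcripts were identical at 61.6% of aligned positions.

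Hp encodes haptoglobin, which binds hemoglobin released from red cells. Hp (chromosome 8, 109575128 to 109579172, minus strand) was the most abundant of the 10 genes, with between 59.7% and 69.5% of their summed FPKM. It had 2805, 3200.2 and 2459 FPKM in the knockout livers and 3227 and 4239 FPKM in the control livers. The groups did not overlap, although knockout 2 and control 1 lay close together. Means were 2821 ± 371 FPKM in knockout livers (SD, n = 3) and 3733 ± 715 FPKM in control livers (SD, n = 2), a log2 difference of -0.40 (SE 0.16). Without control 2 the difference was -0.20. The hemoglobin-rich knockout 1 had the middle Hp level of the 3 knockout livers.

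Lcn2 encodes lipocalin 2, which starves bacteria of iron by binding their siderophores and is made by hepatocytes and by neutrophils. Lcn2 (chromosome 2, 32384633 to 32388252, minus strand) had 10.6, 58.5 and 17.0 FPKM in the knockout livers and 17.5 and 74.1 FPKM in the control livers. The range over all livers was 7.01-fold, from knockout 1 to control 2. It was 5.54-fold among knockout livers and 4.24-fold among control livers. Knockout minus control was -0.69 (SE 0.81) on the log2 scale, -1.70 without control 1 and 0.33 without control 2. Hp exceeded Lcn2 by 266, 54.7 and 145 times in the knockout livers and by 185 and 57.3 times in the control livers.

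Markers of other cells that make Lcn2 and Saa3 were read beside these values. The 13 neutrophil markers summed to 7.19, 11.6 and 6.67 FPKM in the knockout livers and to 4.58 and 7.14 FPKM in the control livers. Of them 2 reached a mean of 1 FPKM, S100a8 and S100a9, while Ly6g was at 0 in 4 of the 5 libraries and Mpo and Elane were at most 0.13 FPKM. The 12 macrophage and Kupffer cell markers summed to 429, 556 and 535 FPKM in the knockout livers and to 316 and 527 FPKM in the control livers. Both sums were highest in knockout 2 and lowest in control 1, and their part in the Saa3 and Lcn2 values was not tested.

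Socs3 encodes the suppressor that binds gp130 and JAK kinases and ends the interleukin 6 signal. Socs3 (chromosome 11, 117966079 to 117970047, minus strand) was the least abundant of the 10 genes. It had 4.68, 3.37 and 6.31 FPKM in the knockout livers and 2.76 and 2.16 FPKM in the control livers. The groups did not overlap, and knockout 3 was highest. Means were 4.79 ± 1.47 FPKM in knockout livers (SD, n = 3) and 2.46 ± 0.42 FPKM in control livers (SD, n = 2). The log2 difference was 0.72 (SE 0.23), and the ratio of the means was 1.95. Within each genotype the order of livers was the opposite of that of Saa1, with knockout 2 the lowest knockout and control 2 the lower control.

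Bcl3 (chromosome 7, 19808462 to 19822770, minus strand) had 16.7, 17.6 and 16.1 FPKM in the knockout livers and 9.85 and 10.3 FPKM in the control livers. The groups did not overlap, and the highest knockout exceeded the lowest by 1.10-fold. Means were 16.8 ± 0.77 FPKM in knockout livers (SD, n = 3) and 10.1 ± 0.30 FPKM in control livers (SD, n = 2). The log2 difference was 0.68 (SE 0.10). Unlike Saa1, Saa2, Orm2 and Lcn2, Bcl3 had nearly the same level in control 1 and control 2.

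**Figure D3:**
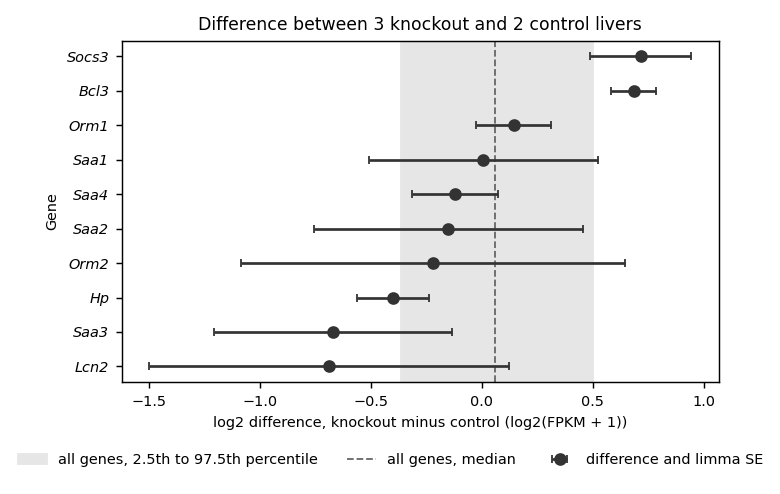
Difference of mean log2(FPKM + 1), 3 knockout minus 2 control livers (x axis), with limma standard errors as bars, for the 10 genes (y axis). The grey band leaves out the lowest and highest 2.5% of all tested genes (-0.36 to 0.50) and the dashed line is their median (0.061). Socs3, Bcl3, Hp, Saa3 and Lcn2 lie outside the band. The genes were chosen with these values known, so their place is a description and no test.

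Over the 10 genes, 2 were higher in every knockout liver than in either control liver, Socs3 and Bcl3. Among the 10820 genes with a mean of at least 1 FPKM this held for 18.9%. Hp alone was lower in every knockout liver than in either control, which held for 6.38% of all tested genes. The groups overlapped for 7 of the 10, and did not overlap for 25.3% of all genes. The means of log2(FPKM + 1) were higher in knockout livers for 4 of the 10 and lower for 6, against 64.2% higher and 35.8% lower over all genes. Means of FPKM itself go the other way for Saa1 and Orm2, with knockout to control ratios of 0.89 and 1.07. The median log2 difference of the 10 was -0.14, beside 0.061 over all genes (0.0026 after median-of-ratios scaling, with -0.20 for the 10). It was -0.72 without control 1, 0.48 without control 2, 0.00051 without knockout 1, -0.36 without knockout 2 and 0.16 without knockout 3. Since these values took part in choosing the genes, nothing is read from the counts.

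The spread between livers of the same genotype was wide for 5 of the 10 genes. The within-group SD of log2(FPKM + 1) was 0.82 for Saa1, 0.96 for Saa2, 0.85 for Saa3, 1.38 for Orm2 and 1.30 for Lcn2. The median over all tested genes was 0.15. These 5 genes lay between the 99.1st and the 99.8th percentile of all genes. Saa4 was at the 84.3rd percentile, Orm1 at the 77.0th, Hp at the 74.3rd and Socs3 at the 88.5th. Bcl3, with an SD of 0.056, was at the 6.67th percentile.

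The same libraries were high for most of the variable genes. Control 2 and knockout 2 were the 2 highest libraries for 6 of the 10 genes, namely Saa1, Saa2, Saa3, Orm1, Orm2 and Lcn2. Over all tested genes this held for 9.81%. The pattern was noticed in these values, and the labels give nothing but the replicate number that the 2 livers share. On the log2 scale control 2 exceeded control 1 by 1.72 for Saa1, 1.89 for Saa2, 1.88 for Saa3, 1.63 for Orm2 and 2.02 for Lcn2. Knockout 2 exceeded knockout 1 by 0.41 for Saa1, 1.17 for Saa2, 0.63 for Saa3, 2.26 for Orm2 and 2.36 for Lcn2. The step was thus uneven between genes, with Saa1, Saa2 and Saa3 differing less among knockout livers than among control livers.

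**Figure D4:**
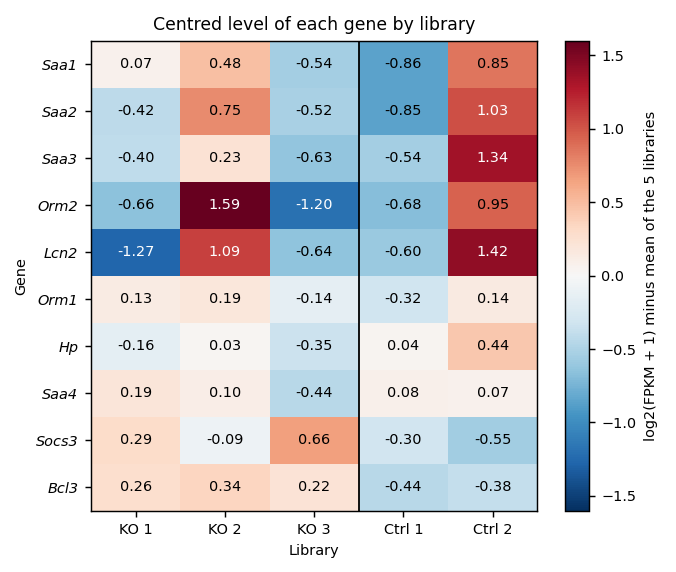
Level of each of the 10 genes (rows) in the 3 knockout livers (KO) and 2 control livers (Ctrl, right of the line), as log2(FPKM + 1) minus the gene's mean over the 5 libraries. Saa1, Saa2, Saa3, Orm2 and Lcn2 are positive in KO 2 and Ctrl 2, while Bcl3 is positive in all 3 knockout livers (0.22 to 0.34) and negative in both controls.

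Promoter sequence was set beside the levels of the genes that shared their high libraries. RefSeq windows on GRCm38.p6 were found for 8 of the 10 genes, all but Orm1 and Hp. In the 250 bases before each start, 6 of the 8 held the C/EBP motif TTGCNNAA on either strand, which 9.57% of 32841 such windows hold. They were Saa1, Saa2, Saa3, Saa4, Orm2 and Lcn2, so that constitutive Saa4 held it as well as the variable genes. The STAT motif TTCNNNGAA, its own reverse complement, was found in 1 of the 8, Socs3 (7.02% of all windows). The NF-kB consensus was found in 0 of the 8 (7.25% of all windows, both strands), and TATAAA on the gene's strand in 1, Orm2 (7.59%). The windows of Lcn2 and Socs3 lie inside the gene as GENCODE draws it. A match describes letters and is not a measured site. Each motif was sought as an exact pattern with no mismatch allowed, so a missing match does not show that a site is absent.

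The stretches before Saa1, Saa2, Saa3 and Orm2 are shown because these genes shared the high libraries, and Bcl3 because it did not. Each is 5′ to 3′ on the gene's strand, cut where the GENCODE gene begins, with matches to TTGCNNAA and TATAAA in capitals. They are chr7:46742981-46743230 (minus) for Saa1, chr7:46751583-46751789 (plus) for Saa2, chr7:46715701-46715926 (minus) for Saa3, chr4:63362199-63362448 (plus) for Orm2 and chr7:19822771-19823005 (minus) for Bcl3.
Saa1: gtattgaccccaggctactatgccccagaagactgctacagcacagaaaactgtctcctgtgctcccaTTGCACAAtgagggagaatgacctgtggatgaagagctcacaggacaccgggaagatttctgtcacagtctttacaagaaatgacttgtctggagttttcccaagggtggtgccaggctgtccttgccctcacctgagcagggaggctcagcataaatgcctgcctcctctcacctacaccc
Saa2: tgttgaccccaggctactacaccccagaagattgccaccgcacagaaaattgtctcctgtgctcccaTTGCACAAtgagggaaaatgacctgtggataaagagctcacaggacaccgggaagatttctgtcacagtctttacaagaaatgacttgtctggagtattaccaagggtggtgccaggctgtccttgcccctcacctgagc
Saa3: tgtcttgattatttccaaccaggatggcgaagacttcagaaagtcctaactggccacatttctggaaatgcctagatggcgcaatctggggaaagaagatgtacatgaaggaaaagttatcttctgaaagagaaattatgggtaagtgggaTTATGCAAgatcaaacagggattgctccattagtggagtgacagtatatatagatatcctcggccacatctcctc
Orm2: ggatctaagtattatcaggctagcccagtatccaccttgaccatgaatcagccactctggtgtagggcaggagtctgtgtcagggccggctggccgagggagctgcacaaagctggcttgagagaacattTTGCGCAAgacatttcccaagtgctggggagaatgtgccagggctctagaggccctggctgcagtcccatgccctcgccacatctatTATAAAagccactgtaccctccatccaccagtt
Bcl3: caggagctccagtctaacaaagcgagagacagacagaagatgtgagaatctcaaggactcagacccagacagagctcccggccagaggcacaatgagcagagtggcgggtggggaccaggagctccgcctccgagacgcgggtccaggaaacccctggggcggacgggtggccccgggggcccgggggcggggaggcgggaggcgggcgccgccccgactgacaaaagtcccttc

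The whole windows of Saa1 and Saa2 aligned with 94.8% identity over 251 columns, and both carry the match TTGCACAA at nearly the same distance from the start (182 and 183 bases before it). Saa1 and Saa3 aligned with 48.9% identity. Saa1 and Saa2 had the same order of the 5 libraries. Their transcripts are alike as well (93.9% identity), and the part of either likeness in that order was not tested.

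Genes outside the list with the most similar profile were found by the root mean square difference of centred log2(FPKM + 1) over the 5 libraries. Closest to the mean profile of the 10 genes were Cmpk2 (0.052), Acp3 (0.084), Plgrkt (0.095), Ly96 (0.099) and Lrtm1 (0.10). The mean profile itself had a root mean square of 0.42 around 0. Closest to the mean of Saa1 and Saa2 were Ly96 (0.22), Cxcl9 (0.24), Cmpk2 (0.26), Igkv17-127 (0.28) and Orm3 (0.29). Ly96 encodes the partner through which TLR4 recognises bacterial lipopolysaccharide. It had 4.50, 6.68 and 3.53 FPKM in the knockout livers and 2.92 and 8.19 FPKM in the control livers. Cxcl9, an interferon-induced chemokine, had 4.07, 9.81 and 4.61 FPKM in the knockout livers and 1.76 and 11.8 FPKM in the control livers. In both genes, control 2 and knockout 2 were the highest libraries and control 1 the lowest. That order follows from picking genes for their likeness to Saa1 and Saa2 and adds nothing to it.

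The other genes of the pathway were tested in a single limma fit. After Benjamini-Hochberg adjustment 0 of the 10820 genes passed (0.00%), and 757 had an unadjusted p below 0.05 (7.00%). None of the 96 genes in the 8 lists of the pathway passed, the smallest adjusted p among them being 0.684, and 8 had an unadjusted p below 0.05. Without control 1, 1 gene passed, the hepcidin gene Hamp (limma adjusted p = 0.00727), which had 5.53 FPKM in control 2. All lists were chosen with earlier results of these data known, and values below are descriptions of genes that did not pass. Genes of a list are counted as higher or lower by their log2 difference.

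The ligands were barely detected in whole liver. Of 11 cytokine genes 2 had a mean of at least 1 FPKM, and Il6 was at most 0.07 FPKM in any library. Il1a had 1.81, 1.32 and 1.66 FPKM in the knockout livers and 1.04 and 1.99 FPKM in the control livers. Il1b had 0.76, 0.67 and 2.12 FPKM in the knockout livers and 0.76 and 1.31 FPKM in the control livers. Neither cytokine followed the whole Saa1 order. Il1a was, like Saa1, highest in control 2 and lowest in control 1, and Il1b was highest in knockout 3.

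The receptors were split evenly, with 6 of 12 higher and 6 lower in knockout livers and a median log2 difference of 0.034 (-0.033 after median-of-ratios scaling, and 0.016 to 0.11 with 1 library left out). Il17ra, a chain of the interleukin 17 receptor, had 7.18, 4.73 and 6.63 FPKM in the knockout livers and 4.67 and 4.32 FPKM in the control livers. Il6st, which encodes gp130, had 23.1, 27.5 and 27.9 FPKM in the knockout livers and 23.2 and 20.95 FPKM in the control livers. Tnfrsf1b, a tumour necrosis factor receptor, had 13.4, 10.9 and 8.96 FPKM in the knockout livers and 14.3 and 13.3 FPKM in the control livers. The adjusted limma p of these 3 genes was between 0.718 and 0.730. The groups overlapped for Il6st and Tnfrsf1b.

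Of 14 JAK-STAT3 genes 12 were higher in knockout livers, 7 of them without overlap between groups, where over all tested genes 64.2% were higher and 18.9% higher without overlap. The median log2 difference of the list was 0.30, beside 0.061 over all genes. With median-of-ratios factors 11 were higher (median 0.24), and with quantile normalization 10 (median 0.23). The median was 0.13 without knockout 3. Since the list was chosen with earlier results of these data known, nothing is read from its counts or its median. Pim1, a kinase gene induced by STAT3, had 10.5, 12.7 and 9.45 FPKM in the knockout livers and 7.25 and 4.91 FPKM in the control livers, a log2 difference of 0.76 (SE 0.19, limma adjusted p = 0.684). Jak1 had 27.4, 26.4 and 28.6 FPKM in the knockout livers and 23.3 and 20.9 FPKM in the control livers (limma adjusted p = 0.700). Pias3, an inhibitor of STAT3, had 4.36, 5.28 and 5.48 FPKM in the knockout livers and 3.95 and 3.86 FPKM in the control livers. In Pim1, Jak1 and Pias3, as in Socs3, each knockout exceeded each control. Pim1, Jak1 and Pias3 were named for the smallest unadjusted p of the list, and Socs3 was chosen with its values known. Nothing is read from that likeness.

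Of 17 NF-kB genes 11 were higher and 6 lower in knockout livers, with 4 higher and 1 lower without overlap and a median of 0.12. Both shares of higher genes were near those over all tested genes, 64.2% higher and 18.9% higher without overlap. That median was 0.057 with median-of-ratios factors, 0.053 with quantile normalization, 0.055 without control 1 and 0.074 without knockout 2. Nfkbia encodes IkB-alpha, the inhibitor that NF-kB itself induces. It had 26.0, 28.1 and 23.5 FPKM in the knockout livers and 42.0 and 33.9 FPKM in the control livers, a log2 difference of -0.53 (SE 0.13, limma adjusted p = 0.689). Tnip1, which binds the NF-kB inhibitor A20, had 5.22, 4.14 and 5.18 FPKM in the knockout livers and 3.29 and 2.73 FPKM in the control livers (limma adjusted p = 0.696). Nfkbib, which encodes IkB-beta, had 18.1, 20.4 and 16.7 FPKM in the knockout livers and 14.9 and 14.2 FPKM in the control livers. Nfkbia and Nfkbib, named for a small unadjusted p, thus differed in direction, with Nfkbia lower and Nfkbib, like Bcl3, higher in each knockout. Among the other IkB genes of the list, Nfkbie was also higher in each knockout. The groups overlapped for Nfkbiz and for Nfkbid, which did not reach the filter.

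Among 8 C/EBP and hepatocyte factors 5 were higher and 3 lower, and 4 and 4 after median-of-ratios scaling or without knockout 2. Cebpb, an acute phase C/EBP factor, had 90.5, 132 and 88.6 FPKM in the knockout livers and 166 and 114 FPKM in the control livers. Cebpd, another, had 2.20, 3.88 and 2.55 FPKM in the knockout livers and 4.09 and 3.92 FPKM in the control livers. Foxa2, a hepatocyte forkhead factor, had 14.1, 22.1 and 25.1 FPKM in the knockout livers and 11.2 and 12.5 FPKM in the control livers. Control 1, where Saa1 and Saa2 were lowest, had the highest Cebpb and Cebpd.

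Of 24 other positive acute phase genes, 12 were higher and 12 lower (median -0.0044), 9 higher with median-of-ratios factors and 14 higher with quantile normalization. The split rested on single livers, with 20 of 24 higher without knockout 3 (median 0.14) and 8 of 24 without knockout 2 (median -0.099). Fga, the fibrinogen alpha chain, had 2043, 2641 and 2137 FPKM in the knockout livers and 1928 and 1801 FPKM in the control livers (limma adjusted p = 0.718). Tifa, an adaptor upstream of NF-kB, had 7.64, 11.5 and 11.8 FPKM in the knockout livers and 4.68 and 9.23 FPKM in the control livers. Steap4, a metalloreductase, had 74.8, 73.7 and 88.0 FPKM in the knockout livers and 65.1 and 71.4 FPKM in the control livers. None of these 3, named for the smallest unadjusted p of the list, was highest in control 2, unlike Saa1. In the whole list only Hpx, Itih4 and Cfb were highest in control 2.

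Negative acute phase genes, whose products the liver makes less of in inflammation, were higher in 5 of 12 cases and lower in 7 (median -0.071), and in 3 and 9 after either rescaling and 2 and 10 without control 2 (median -0.12). Ttr, or transthyretin, had 5077, 5253 and 4820 FPKM in the knockout livers and 5859 and 6609 FPKM in the control livers, a log2 difference of -0.30 (SE 0.10, limma adjusted p = 0.700). Serpina6, the corticosteroid carrier, had 126, 183 and 145 FPKM in the knockout livers and 182 and 203 FPKM in the control livers. Cyp8b1, a bile acid hydroxylase, had 132, 188 and 81.2 FPKM in the knockout livers and 86.5 and 53.3 FPKM in the control livers. Ttr and Serpina6 were highest in control 2, the liver with the most Saa1, Saa2, Saa3 and Lcn2, whereas Cyp8b1 was lowest there. The rest of the list also went both ways in that liver.

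Receptors and other genes that clear or sense the products were higher in 5 of 7 tested cases (median 0.040), and in 4 after median-of-ratios scaling. Over all tested genes 64.2% were higher. Without control 2 the median was 0.29, without knockout 2 it was 0.16, without knockout 3 it was 0.084 and without control 1 it was 0.071. Cd163, the macrophage receptor for haptoglobin with hemoglobin, had 4.37, 6.46 and 5.0 FPKM in the knockout livers and 3.12 and 4.56 FPKM in the control livers (limma adjusted p = 0.726). Hmox1, which breaks down heme, had 19.1, 23.02 and 23.4 FPKM in the knockout livers and 13.4 and 23.2 FPKM in the control livers. Fpr2, a formyl peptide receptor that binds serum amyloid A, had 0.73, 0.64 and 2.66 FPKM in the knockout livers and 0.78 and 0.72 FPKM in the control livers. The groups overlapped for each of the 3.

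**Figure D5:**
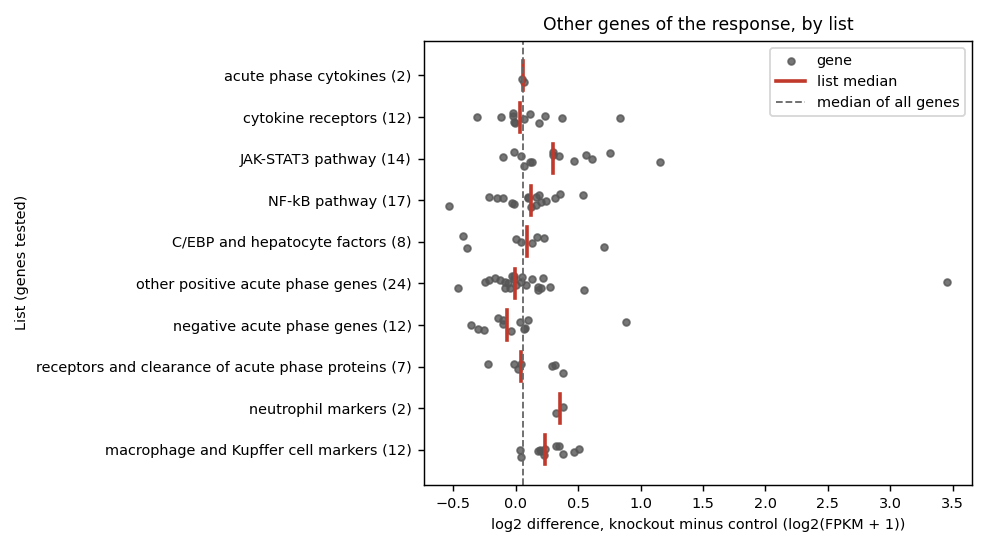
Difference of mean log2(FPKM + 1), knockout minus control (x axis), of each tested gene (points) in the pathway lists and 2 marker lists (y axis, number of genes tested in brackets), with list medians in red and the median of all genes dashed. The JAK-STAT3 median (0.30) lies right of the median of all genes (0.061), and the single far point is Hamp, which had 5.53 FPKM in control 2 and at least 943 FPKM in the other livers. The lists were chosen with earlier results of these data known, so the place of a median is a description and no test.

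Cell markers were checked over the same fit. Hepatocyte transcripts were abundant in every library, with Alb between 37676 and 51017 FPKM. Of the 12 hepatocyte markers 4 were higher and 8 lower in knockout livers (median -0.13), and 3 and 9 after either rescaling. Without overlap 3 were lower and 1 was higher. Over all tested genes 35.8% were lower and 6.38% lower without overlap. Without control 1 the lower markers were 7 of 12, and without control 2 they were 10 of 12. All 12 macrophage and Kupffer cell markers were higher in knockout livers (median 0.23), but 10 after either rescaling and 3 of 12 without control 1 (median -0.13), and 0 passed. Leaving out control 2 moved that median to 0.60, and leaving out knockout 1 moved it to 0.39. The 10 sinusoidal endothelial markers, from the cells at which the Cre is directed, summed to 202, 153 and 160 FPKM in the knockout livers and to 180 and 162 FPKM in the control livers, with 6 of 10 higher in knockout livers and 4 of 10 after either rescaling (5 to 8 with 1 library left out). Among the 8 stellate cell and fibroblast markers 2 were higher and 6 lower (median -0.059), but 5 were higher without control 2 (median 0.024) and 4 without knockout 1 (median 0.0021), while the median was -0.16 without control 1 or knockout 3 and -0.11 without knockout 2. The erythrocyte sum, high in knockout 1, did not follow the order of Saa1, Lcn2 or Bcl3, and its part in their values was not tested.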

How the data were processed

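RNA-seq of total liver RNA (paired-end, per the labels' protocols) gave 5 libraries. The authors deposited FPKM per gene symbol, rounded to 2 decimals, in 2 tables with identical values in all 33589 rows, with 220 rows repeating a symbol and 0 columns of other samples. HISAT2, StringTie, DESeq2 and mm10 are named in the submitters' processing notes, and versions, roles and strand use are not given in the sources used here. FPKM are not counts: of the low values of single-exon genes of 150 to 900 nt, between 25.9% and 30.1% came out whole (within 0.1) when divided by the commonest step, so reads were not recovered, depth is unknown, and no counting interval is given.

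Genes averaging 1 FPKM or more (10820) were log2-transformed with a pseudocount of 1 and fitted with limma 3.58.1 (R 4.3.3, trended prior) over all 5 libraries, with genotype as the only term. Tests were two-sided with Benjamini-Hochberg adjustment at 0.05, and fold changes on that scale understate those of low genes. The fit was tested on simulated data. Positions came from GENCODE M21 and promoters from RefSeq (GRCm38.p6). Transcripts and windows were aligned globally with Biopython 1.88. The 10 genes and all lists were chosen with earlier results of these data known. The genes named are the 10, the 3 of each pathway list with the smallest unadjusted p, the 5 nearest by profile, and Heg1. Other genes of the pathway lists named beside these, such as Hamp and Orm3, and genes of the closing section were chosen after their values were seen. Hepatocyte markers share Alb, Apoa1, Ttr and Hnf4a with other lists.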

Additional observations from a re-analysis of the deposited data

How the results depend on the processing

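Over the whole table the count of genes that passed stayed at 0 with a pseudocount of 0.1, no filter, a filter of 5 FPKM, median-of-ratios scaling, quantile normalization and library weights. With the replicate number as a block it was 5, none of them among the pathway lists. Knockout 3 has no control of its number, so the block fit gave the same differences as leaving out knockout 3. Leaving out 1 library gave between 0 and 1 genes over the table and between 0 and 1 in the pathway lists, the single gene being Hamp without control 1. A lone control is then assumed to vary as the knockouts do. The labels do not say that a number marks a shared litter or batch. Deviations from the group means correlated at 0.227 over 10820 genes between control 1 and knockout 1 and at 0.196 between control 2 and knockout 2. The deviations of the 2 controls are each other's negative, so the crossed pairs mirror these values. Control 2 with knockout 1 was at -0.227 and control 1 with knockout 2 at -0.196. With 2 pairs of equal number and no label for them, the numbers were not taken to pair the samples. Among the recomputed differences of the 10 genes, 113 moved by less than the SD within groups, 6 moved by more and 18 changed sign, in Saa1, Saa2, Saa3, Saa4, Orm1, Orm2 and Lcn2. These counts include both the block fit and the fit without knockout 3, whose differences are the same. The range over all alternatives was 0.61 to 0.73 for Bcl3, 0.53 to 0.90 for Socs3 and -0.60 to -0.20 for Hp, the 3 genes whose groups do not overlap. Paralog sharing limits Saa1, Saa2, Orm1 and Orm2, and 2 control libraries limit every SD.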

Other observations

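Some positive acute phase genes outside the 10 were high in knockout 2 but not in control 2. Mt2, a metallothionein, had 4.17, 371 and 9.03 FPKM in the knockout livers and 34.7 and 24.4 FPKM in the control livers, and Mt1 had 14.5, 392.4 and 18.3 FPKM in the knockout livers and 79.3 and 55.7 FPKM in the control livers. Fgl1, a secreted fibrinogen-like protein, had 245, 486 and 194 FPKM in the knockout livers and 279 and 242 FPKM in the control livers. Hpx, which encodes the heme carrier hemopexin, had the same order of libraries as Saa1, with 3146, 3709 and 2905 FPKM in the knockout livers and 2850.1 and 4016 FPKM in the control livers. Crp, a weak acute phase gene in the mouse, had 218, 241 and 203 FPKM in the knockout livers and 227 and 229 FPKM in the control livers. No difference between the groups passed for any of these genes, with limma adjusted p between 0.925 and 0.988.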
